A study of Homo sapiens with 4 samples.

Results

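A group of 10 long noncoding RNAs was followed in FaDu cells, an established line of squamous carcinoma cells of the hypopharynx. They were taken by name (MALAT1, NEAT1, TUG1, GAS5, SNHG1, SNHG3, SNHG5, SNHG12, H19 and HOTAIR) from the RNA-Seq table, where all 10 had a row among 62077. Cells carried a scrambled control hairpin or a hairpin against TET1 (labelled TET1-si), both expressed from a lentiviral vector after infection. Both lines were kept in normoxia or in hypoxia (1% O2 for 19 h), with 5% CO2 in either state. That gave 4 groups with 1 library each, named N-scr and N-si for normoxia and H-scr and H-si for hypoxia. The study asked which genes depend on TET1 under hypoxia, TET1 being a dioxygenase that oxidises 5-methylcytosine in DNA.

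Long noncoding RNAs are transcripts that are not known to be translated into a stable protein. Some stay in the nucleus: NEAT1 is the scaffold of paraspeckles, MALAT1 sits in nuclear speckles, and TUG1 has been tied to chromatin repression. Others are hosts of small nucleolar RNAs (snoRNAs), whose introns are processed into the snoRNAs that guide the chemical modification of ribosomal RNA, while the spliced exons are often degraded by nonsense-mediated decay. Many snoRNA hosts belong, with the ribosomal protein genes, to the class whose transcripts begin with a C followed by a run of pyrimidines. H19 is transcribed from the maternal allele of an imprinted locus and is the precursor of miR-675, and HOTAIR is read from the HOXC cluster and binds chromatin repressors.

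Levels are FPKM, fragments per length of exon and per number of fragments mapped, as the authors deposited them. Changes are differences of log2(FPKM + 0.1), for which a value of 1 is a 2-fold change. Depth, worked out from genes of 1 exon, lay between 22600000 and 24700000 reads per library. Where 4 values of a gene follow each other, the normoxia libraries come first and the scrambled library leads each pair (N-scr, N-si, then H-scr, H-si). There is no replicate, so no p-value is given and every difference is one between single libraries. The bracketed ranges are 95% exact counting intervals of the log2 ratio, taken without the 0.1, and those of a difference between responses come from Poisson variances. They cover counting error only, and neither the spread between cultures nor the scaling of the libraries is in them. The libraries were bulk RNA, in which fewer cells that carry a transcript and less of it per cell cannot be told apart.

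TET1 itself was low, at 0.129, 0.0493, 0.331 and 0.122 FPKM, and lower with the hairpin in both oxygen states. The squamous epithelial markers KRT5, TP63, DSG3, EPCAM and CDH1 were all detected, from 4.88 FPKM (DSG3 in N-si) upwards. Their sum, most of it KRT5, was 3069, 1043, 4455 and 2057 FPKM, the order of libraries that TUG1 had, and its part in the TUG1 result was not tested. The markers did not move together. KRT5, TP63 and DSG3 were lower with the hairpin in both oxygen states. EPCAM (154.5, 205.9, 101.6 and 163.4 FPKM) and CDH1 (179.3, 266.9, 291.9 and 398.9) were higher. Of the markers of other cell types, the leukocyte gene PTPRC was listed at 0 in 3 libraries and at 0.0101 in H-si, and VIM reached at most 0.406. COL1A1, a collagen gene of fibroblasts, was the exception, with 5.29, 14.0, 28.6 and 37.0 FPKM. The sum of these markers ran from 5.65 FPKM in N-scr to 37.1 in H-si. COL1A1 had the same order of libraries as H19, described later, and so did the epithelial marker CDH1. The part of either in that result was not tested.

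The levels of the 10 RNAs differed widely. In N-scr the highest were SNHG5 with 738.6 FPKM, GAS5 with 647.8 and NEAT1 with 639.3, and the lowest was HOTAIR with 1.24. All 10 had a mean of at least 1 FPKM, the minimum for the 15057 genes over which changes were counted. NEAT1 ranked 182 and 331 among these 15057 genes in the normoxia libraries and 88 and 86 in those of hypoxia. The plot of levels by library shows 2 shapes: all 5 snoRNA hosts had their highest value in N-scr and their lowest in H-si, whereas every other RNA had its highest value in a hypoxia library.

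**Figure D1:**
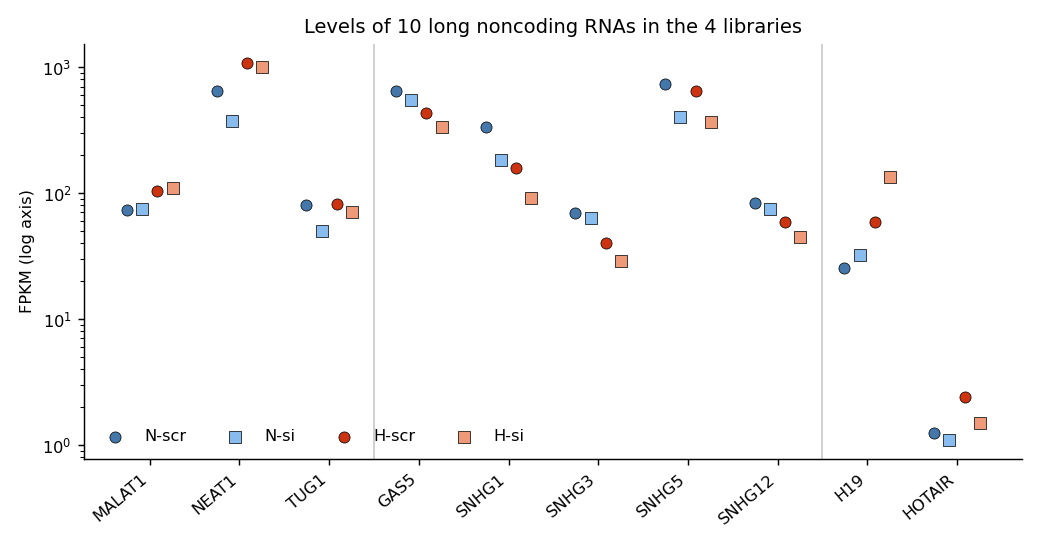
FPKM (log axis) of the 10 RNAs in the 4 libraries, 1 point per library and no error bars because each group has 1 library. The grey lines part the nuclear RNAs, the snoRNA hosts, and H19 with HOTAIR. GAS5, SNHG1, SNHG3 and SNHG12 step down from N-scr through N-si and H-scr to H-si, and H19 steps up from 25.2 to 134.1.

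NEAT1 (ENSG00000245532, chromosome 11, 65190245 to 65213011, plus strand, hg19) had 639.3 FPKM with the scrambled and 371.5 with the TET1 hairpin in normoxia, and 1079 and 995.3 in hypoxia. Both hypoxia libraries lay above both normoxia libraries, and N-si was the lowest of the 4. The hypoxia response was 0.75 [0.75 to 0.76] on the log2 scale with the scrambled hairpin and 1.42 [1.41 to 1.43] with that against TET1, which are ratios of 1.69 and 2.68. The TET1-si response was -0.78 [-0.79 to -0.78] under normoxia and -0.12 [-0.12 to -0.11] under hypoxia. NEAT1 was thus 1.72-fold lower with the hairpin in normoxia and 1.08-fold lower in hypoxia. The hypoxia response was larger in TET1-si cells by 0.67 [0.66 to 0.68].

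Reads for these intervals were computed with the annotated transcript of 22743 bp. NEAT1 also has a short isoform, for which that length overstates the reads, and with 1000 bp for every RNA (an alternative chosen after the data were seen) the intervals widened only to 0.72 to 0.79, 1.38 to 1.46, -0.83 to -0.74 and -0.15 to -0.09 for the same 4 comparisons. The FPKM is given for the gene, so the long and the short isoform of NEAT1 cannot be told apart in it. MIR612, a microRNA locus of 100 bp inside NEAT1, was listed at 0 in all 4 libraries.

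MALAT1 (ENSG00000251562, chromosome 11, 65265233 to 65273940, plus strand) lies 52221 bp downstream of NEAT1 on the same strand. It had 72.9 FPKM with the scrambled and 74.2 with the TET1 hairpin in normoxia, and 103.7 and 108.9 in hypoxia. The hypoxia libraries were higher, by 0.51 [0.48 to 0.54] in scrambled and 0.55 [0.53 to 0.58] in TET1-si cells on the log2 scale. The TET1-si response was 0.03 [0.00 to 0.06] under normoxia and 0.07 [0.05 to 0.10] under hypoxia, and its sign turned with the scaling, to -0.15 under normoxia with upper-quartile scaling and to -0.07 under hypoxia with median-of-ratios scaling. No direction is therefore given for it. The level of NEAT1 was 8.77 times that of MALAT1 in N-scr and 5.01 times in N-si, and 10.4 and 9.14 times in the hypoxia libraries. The ratio was lowest in N-si.

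TUG1 (ENSG00000253352, chromosome 22, 31366663 to 31374831, plus strand) is listed as protein coding in GENCODE v44. Its levels were 79.8 FPKM with the scrambled and 49.9 with the TET1 hairpin in normoxia, and 81.2 and 70.1 in hypoxia. N-si was again the lowest library, and N-scr and H-scr did not differ beyond counting error (0.02 [-0.01 to 0.06]). The hypoxia response in TET1-si cells was 0.49 [0.45 to 0.53], the TET1-si response -0.68 [-0.72 to -0.64] under normoxia and -0.21 [-0.25 to -0.18] under hypoxia. In scrambled cells the sign of the hypoxia response depended on the scaling, from -0.09 with median-of-ratios scaling to 0.14 with TPM. TUG1 and NEAT1 thus shared an N-si value well below the other 3 libraries, with differences between the hypoxia responses of 0.47 [0.42 to 0.52] and 0.67. MALAT1 did not, at 0.05 [0.01 to 0.08].

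The proteins of paraspeckles did not follow NEAT1. Of 11 genes listed (among them NONO, SFPQ and PSPC1), all 11 were lower in hypoxia in scrambled cells, with a median of -0.37, and all 11 in TET1-si cells, with a median of -0.57. The changes nearest to 0 were -0.11 and -0.06. With TPM the medians were -0.25 and -0.44, and the counts of 11 were not redone, so they may rest on the scaling. Of all genes tested 46.4% and 47.8% were lower, with medians of 0.05 and 0.03. None was 2-fold changed in scrambled cells, and 1 was in TET1-si cells: RBM14, an RNA-binding protein needed for paraspeckle assembly, had 83.1, 93.6, 54.5 and 38.4 FPKM. At least 2-fold lower in these comparisons were 4.53% and 8.66% of all genes, so 1 of 11 lies near the background. NUDT21, a subunit of the cleavage factor that acts on NEAT1 polyadenylation, had 207.5, 258.4, 142.2 and 135.5 FPKM. HNRNPA1 had the largest TET1-si response under hypoxia in the list, -0.86, from 1108 FPKM in H-scr to 612.6 in H-si. For the list as a whole the median change with the hairpin was -0.07 under hypoxia (7 of 11 lower) and 0.06 under normoxia (5 of 11 lower), the latter -0.10 with median-of-ratios scaling. Among all genes tested 42.9% and 39.0% were lower with the hairpin. HNRNPA1 has many processed pseudogenes, and its level is uncertain for that reason.

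The 5 snoRNA hosts moved in one direction in every comparison. All 5 were lower in hypoxia in scrambled cells (median -0.60), lower in hypoxia in TET1-si cells (-0.74), and lower with the hairpin under hypoxia (-0.46) and normoxia (-0.25). Over all genes tested, 46.4%, 47.8%, 42.9% and 39.0% were lower in the same comparisons, with medians of 0.05, 0.03, 0.10 and 0.15. The first pair of comparisons shares no library, and neither does the second, but each hypoxia response shares libraries with each TET1-si response. The summed level of the 5 was 1872 FPKM with the scrambled and 1271 with the TET1 hairpin in normoxia, and 1327 and 864.8 in hypoxia. With either change alone this sum was lower by a similar amount, but single hosts differed. Against N-scr, SNHG5 was at -0.20 in hypoxia alone and -0.87 with the hairpin alone, and SNHG3 at -0.80 and -0.13.

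The sequences at the starts of the hosts are shown because the class is known by them. Each line runs from 40 bases before the annotated start to 20 bases from it, 5′ to 3′, and the capitals mark an unbroken run of pyrimidines that opens with a C at the start. The first 4 are RefSeq starts on GRCh38.p14: SNHG12 at chr1:28581854-28581913 (minus strand), SNHG5 at chr6:85678714-85678773 (minus), SNHG1 at chr11:62855866-62855925 (minus) and SNHG3 at chr1:28505903-28505962 (plus). The fifth is the GENCODE start used by 50 of 91 annotated GAS5 transcripts, on GRCh37 at chr1:173837108-173837167 (minus).
SNHG12: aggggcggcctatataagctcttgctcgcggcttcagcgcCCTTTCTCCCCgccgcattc
SNHG5: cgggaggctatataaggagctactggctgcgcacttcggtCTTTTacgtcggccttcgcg
SNHG1: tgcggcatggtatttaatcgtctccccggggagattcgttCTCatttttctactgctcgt
SNHG3: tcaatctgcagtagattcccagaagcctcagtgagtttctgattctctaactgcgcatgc
GAS5: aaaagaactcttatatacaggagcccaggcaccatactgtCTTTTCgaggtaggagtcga
The run held 11 bases in SNHG12, 5 in SNHG5, 3 in SNHG1 and none in SNHG3, and 6 in GAS5 at this start. At the RefSeq start of GAS5, which lies elsewhere, there was none, nor was there at the GENCODE start used by 61 of 89 SNHG5 transcripts. A C followed by at least 4 pyrimidines (C or T) stands at the start of 4.07% of 35116 RefSeq promoters. TATATAA, searched on both strands, was in the 300-base RefSeq windows of SNHG5 and SNHG12 and in 2.57% of all such windows. SNHG1 and SNHG3, with 3 bases and none, had the lowest hypoxia responses, and SNHG5 the one nearest to 0. The starts came from RefSeq and GENCODE, and the runs of GAS5 and SNHG5 depend on which is used. Whether the run bears on the responses was not tested. Annotated starts can differ from those used in these cells.

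GAS5 (ENSG00000234741, chromosome 1, 173833038 to 173838020, minus strand), named for its rise in growth arrest, had 647.8 FPKM with the scrambled and 544.8 with the TET1 hairpin in normoxia, and 427.5 and 335.0 in hypoxia. It was lower in both hypoxia libraries than in both normoxia libraries. The hypoxia responses were -0.60 [-0.65 to -0.55] and -0.70 [-0.76 to -0.65], and the TET1-si responses -0.25 [-0.30 to -0.20] under normoxia and -0.35 [-0.41 to -0.29] under hypoxia. GAS5 overlaps ZBTB37 on the other strand by 801 bp, where ZBTB37 had between 2.01 and 3.69 FPKM.

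SNHG1 (ENSG00000255717, chromosome 11, 62619460 to 62623386, minus strand) had 332.6 FPKM with the scrambled and 184.3 with the TET1 hairpin in normoxia, and 158.5 and 91.3 in hypoxia. Its ratio to N-scr was 0.554 with the hairpin alone and 0.477 in hypoxia alone, and the level was lowest when both were combined. Among these 5 hosts it had the largest hypoxia response in scrambled cells, -1.07 [-1.13 to -1.01], and that in TET1-si cells was -1.01 [-1.09 to -0.93]. The TET1-si response was -0.85 [-0.91 to -0.80] under normoxia and -0.79 [-0.88 to -0.72] under hypoxia. The difference between the hypoxia responses was 0.06 [-0.04 to 0.15].

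SNHG5 (ENSG00000203875, chromosome 6, 86370710 to 86388451, minus strand) had 738.6 FPKM with the scrambled and 404.4 with the TET1 hairpin in normoxia, and 642.9 and 365.2 in hypoxia. It was the single one of these 5 hosts in which both TET1-si libraries lay below both scrambled libraries. The TET1-si response was -0.87 [-0.90 to -0.84] under normoxia and -0.82 [-0.85 to -0.78] under hypoxia. The hypoxia responses were small, -0.20 [-0.23 to -0.17] in scrambled cells and -0.15 [-0.19 to -0.11] in TET1-si cells. Rescaled to TPM they were -0.08 and -0.01, so their size rests on the scaling.

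SNHG3 (ENSG00000242125, chromosome 1, 28832492 to 28837404, plus strand) and SNHG12 (ENSG00000197989, chromosome 1, 28905050 to 28909495, minus strand) lie 67645 bp apart. SNHG3 had 69.3, 63.2, 39.7 and 28.9 FPKM, and SNHG12 had 83.7, 74.0, 58.4 and 44.4. Both were lower chiefly in hypoxia. For SNHG3 the hypoxia response was -0.80 [-0.89 to -0.72] in scrambled and -1.13 [-1.23 to -1.04] in TET1-si cells, and for SNHG12 -0.52 [-0.60 to -0.44] and -0.74 [-0.83 to -0.65]. The hairpin had less effect under normoxia, -0.13 [-0.20 to -0.06] for SNHG3 and -0.18 [-0.25 to -0.11] for SNHG12. Under hypoxia the TET1-si responses were -0.46 [-0.56 to -0.36] and -0.40 [-0.49 to -0.31]. SNHG3 lies wholly inside RCC1 on the same strand, a gene for a chromatin-bound exchange factor, so reads could be divided between them. RCC1 had 113.0, 145.0, 71.9 and 98.8 FPKM, higher with the hairpin where SNHG3 was lower.

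The hosts therefore fell into different orders of libraries. GAS5, SNHG1, SNHG3 and SNHG12 ran from N-scr through N-si and H-scr to H-si, and SNHG5 from N-scr through H-scr and N-si to H-si. The middle steps differed beyond counting error in each of the 5: H-scr against N-si was -0.35 [-0.40 to -0.30] for GAS5, -0.22 [-0.28 to -0.15] for SNHG1, -0.67 [-0.75 to -0.59] for SNHG3, -0.34 [-0.42 to -0.26] for SNHG12 and 0.67 [0.63 to 0.70] for SNHG5. The plot of log2 ratios shows the 5 hosts to the left of 0 in all 4 panels.

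**Figure D2:**
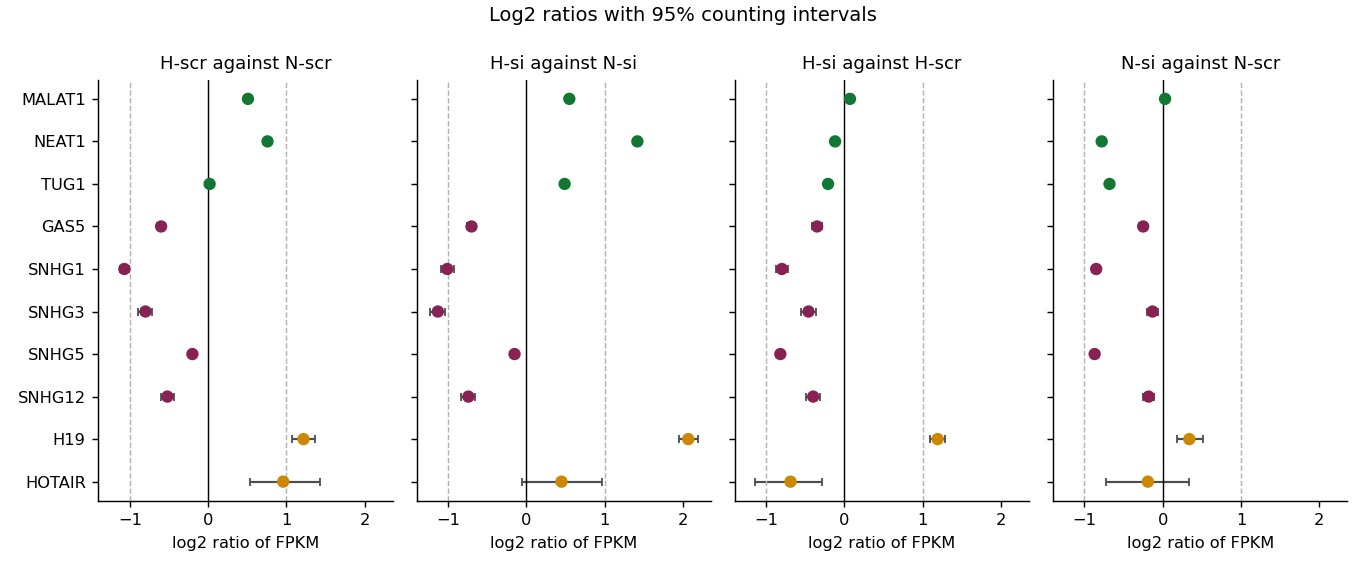
Log2 ratios of FPKM, without a pseudocount, for the 10 RNAs in the 4 comparisons, with bars for 95% exact counting intervals (hidden behind the point where narrower). Dashed lines mark 2-fold. Green points are nuclear RNAs, purple snoRNA hosts, and orange H19 and HOTAIR. H19 lies right of the 2-fold line in the first 3 panels, and SNHG1 lies left of it in the first 2.

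Other snoRNA hosts were listed for comparison (16 names, of which 14 had a row and 13 a mean of at least 1 FPKM). In hypoxia 12 of 13 were lower in scrambled cells, 3 of them 2-fold, with a median of -0.62, and 10 of 13 in TET1-si cells, 3 of them 2-fold, with a median of -0.32. Of all genes tested 46.4% and 47.8% were lower in these comparisons, and 4.53% and 8.66% at least 2-fold lower. The lowest response in scrambled cells was that of SNHG9, with 27.5, 24.4, 11.6 and 9.69 FPKM. With the hairpin, 9 of 13 were lower under hypoxia (median -0.14) and 11 of 13 under normoxia (-0.24), 1 of them 2-fold in each case, where 42.9% and 39.0% of all genes were lower and 8.35% and 5.56% 2-fold lower. A count of 1 of 13 lies near that background. The 2-fold lower host was SNHG15, with 77.2, 21.5, 35.3 and 9.54 FPKM, lower with either change and lowest with both, and, like those of SNHG5, its TET1-si libraries both lay below both scrambled libraries. SNHG17, with 94.8, 61.3, 49.97 and 26.4 FPKM, had the same order as SNHG1. The hosts were not uniform, since SNHG11 was higher in hypoxia in both lines (0.43 and 0.88) and SNHG20 was higher with the hairpin in both oxygen states (0.91 and 0.81). Both were named after their values were seen.

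The genes for proteins that bind snoRNAs were lower in hypoxia too. Of 13 genes for such proteins and their assembly factors, all 13 were lower in both lines, with medians of -1.0 in scrambled and -1.21 in TET1-si cells, and 6 and 7 of them were at least 2-fold lower, where 4.53% and 8.66% of all genes tested were. The 6 depend on the pseudocount, since NAF1 and RUVBL1, more than 2-fold lower by the plain ratio of FPKM in scrambled cells (0.496 for NAF1), fell just short of it once 0.1 was added. NOLC1, a nucleolar chaperone, had 189.1, 120.0, 68.8 and 44.3 FPKM. DKC1, the pseudouridine synthase of the H/ACA particles, had 223.8, 194.6, 97.0 and 70.2 FPKM. With the hairpin 11 of 13 were lower under hypoxia (median -0.48, 2 of them 2-fold) and 10 of 13 under normoxia (-0.30, 1 of them 2-fold), against 8.35% and 5.56% of all genes 2-fold lower, so that the count under normoxia lies near the background. FBL, the 2'-O-methyltransferase of the C/D particles, had 495.8, 219.1, 313.2 and 111.1 FPKM. NOP58, another C/D core protein, had 61.4 FPKM in H-scr against 28.1 in H-si. The plot of related lists shows the snoRNA-binding proteins wholly below 0 in both lines.

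Factors of nonsense-mediated decay, which degrades the spliced exons of several hosts, showed no such shift. Among 10 genes the median hypoxia response was -0.05 in scrambled cells (6 lower) and -0.09 in TET1-si cells (7 lower), or 0.06 and 0.04 with TPM, and with the hairpin the medians were 0.21 (hypoxia) and 0.20 (normoxia). In hypoxia 46.4% and 47.8% of all genes tested were lower. A single change reached 2-fold, that of the endonuclease SMG6 with the hairpin under normoxia, from 4.78 FPKM in N-scr to 11.6 in N-si. In that comparison 12.1% of all genes were at least 2-fold higher, so 1 of 10 lies near the background. UPF3B, which links decay to exon junctions, had 38.8, 52.7, 26.2 and 33.3 FPKM.

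**Figure D3:**
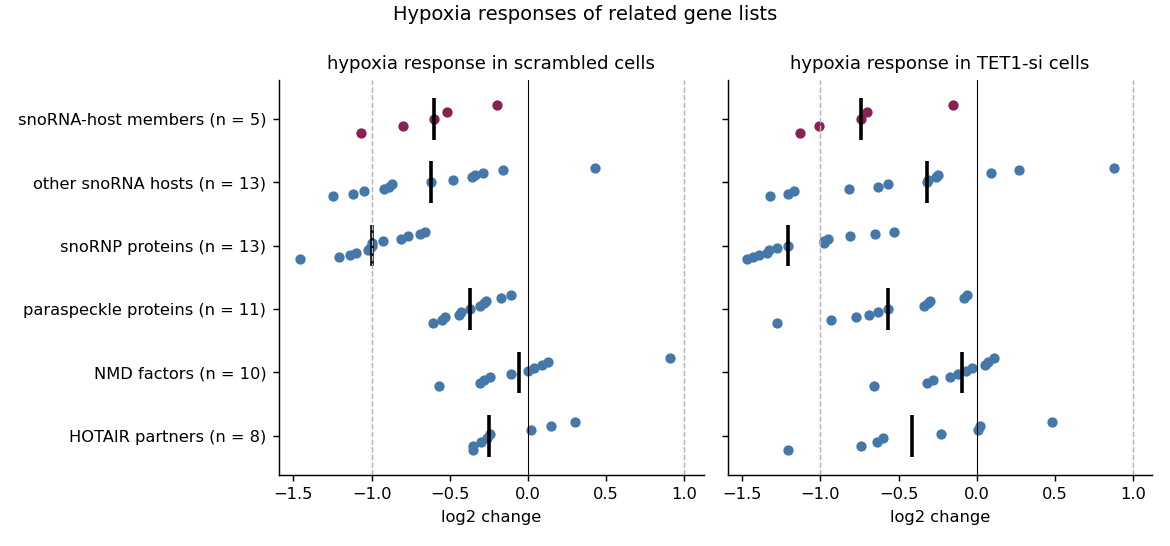
Log2 changes in hypoxia of each gene with a mean of at least 1 FPKM in 6 lists, in scrambled (left) and TET1-si cells (right). Points are genes, sorted and spread vertically within a list, black bars are medians and dashed lines mark 2-fold. Every snoRNP protein lies below 0 in both panels, and the decay factors centre near 0 (medians -0.05 and -0.09).

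The snoRNAs inside the hosts could mostly not be read. The loci of the 10 RNAs hold 27 rows for small RNAs, and 20 of them, 63 to 100 bp long, were listed at 0 in all libraries. All 8 in GAS5 and both in SNHG5 were among these. Of all rows whose ID GENCODE v44 lists as a snoRNA, 0 of 520 under 100 bp were above 0 in any library. Of 913 longer rows, 167 (18.3%) were. Most snoRNA rows at these loci have IDs absent from that annotation and are not in these counts. The libraries were made from mRNA, and an exact 0 in such a row can be a failed estimate, so nothing about the snoRNAs is read from it. The other 7 rows were 125 to 206 bp long. SNORA73A in SNHG3 had 73.6, 21.996, 36.6 and 6.95 FPKM, and SNORA73B had 41.2, 44.004, 29.3 and 10.0. Both were lowest in H-si, as was their host. In SNHG12, SNORA61 had 552.4, 156.4, 71.3 and 137.6, and SNORA16A had 168.6, 69.7, 3.18 and 1.34e-05, so their lowest libraries differed. For rows this short, reads of the host and its precursor cannot be told from reads of the snoRNA.

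A snoRNA of each of 4 hosts is shown, to let the kinds be told apart by their boxes. Sequences were read 5′ to 3′ from GRCh37 at the coordinates of the table, all on the strand of the host: SNORD81 of GAS5 at chr1:173833284-173833360, SNORD27 of SNHG1 at chr11:62622484-62622555, SNORD50A of SNHG5 at chr6:86387012-86387086 and SNORA61 of SNHG12 at chr1:28906276-28906405. Capitals mark box C (TGATGA) and box D (CTGA) in the C/D class, whose particle holds FBL and NOP58, and the ACA near the 3′ end in the H/ACA class, whose particle holds DKC1.
SNORD81: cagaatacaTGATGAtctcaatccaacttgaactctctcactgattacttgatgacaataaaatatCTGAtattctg
SNORD27: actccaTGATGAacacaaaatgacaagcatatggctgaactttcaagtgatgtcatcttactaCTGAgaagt
SNORD50A: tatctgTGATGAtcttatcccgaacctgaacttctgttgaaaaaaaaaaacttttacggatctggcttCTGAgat
SNORA61: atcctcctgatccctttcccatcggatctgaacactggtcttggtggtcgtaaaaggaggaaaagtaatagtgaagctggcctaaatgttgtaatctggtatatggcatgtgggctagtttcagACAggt
Of the 20 C/D snoRNAs in the 5 hosts, 12 held both boxes in exactly these letters, and 4 of the 5 H/ACA snoRNAs held the ACA.

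H19 (ENSG00000130600, chromosome 11, 2016406 to 2022700, minus strand) had 25.2 FPKM with the scrambled and 32.0 with the TET1 hairpin in normoxia, and 58.7 and 134.1 in hypoxia. These levels rest on approximately 519, 703, 1280 and 2700 reads. The 4 libraries were apart beyond counting error, and the order was the reverse of that of most hosts. H19 had the largest changes of the 10 RNAs in 3 of the 4 comparisons, all but that of the hairpins under normoxia. In hypoxia it was 2.33-fold higher in scrambled cells (1.21 [1.07 to 1.37] on the log2 scale) and 4.19-fold higher in TET1-si cells (2.06 [1.95 to 2.19]). With the hairpin it was 2.28-fold higher under hypoxia (1.19 [1.09 to 1.29]) and 1.27-fold higher under normoxia (0.34 [0.18 to 0.51]). The difference of the hypoxia responses was 0.85 [0.66 to 1.04], the largest of the 10.

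IGF2, the growth factor gene that shares the imprinted locus and is read from the other parental allele, was close to 0, with at most 0.130 FPKM (H-scr). MIR675, inside the first exon of H19, was listed at 0 in all libraries, as were all other rows under 100 bp at these loci. The mature miR-675 sequences from RefSeq (GRCh38.p14) are given for identity, with the seed (bases 2 to 8) in capitals.
hsa-miR-675-5p: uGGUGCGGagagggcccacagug
hsa-miR-675-3p: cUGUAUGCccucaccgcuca
The seeds differ, and neither arm could be measured here.

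HOTAIR (ENSG00000228630, chromosome 12, 54356092 to 54368740, minus strand) was the lowest of the 10, with 1.24 FPKM with the scrambled and 1.09 with the TET1 hairpin in normoxia, and 2.42 and 1.49 in hypoxia, on approximately 63, 59, 131 and 74 reads. H-scr was the highest library. The hypoxia response in scrambled cells was 0.91 [0.53 to 1.43], and the TET1-si response under hypoxia was -0.66 [-1.14 to -0.29]. The response to hypoxia in TET1-si cells (0.42 [-0.06 to 0.97]) and the response to TET1-si under normoxia (-0.18 [-0.73 to 0.34]) were not detectable at this depth. Some of these calls depended on the length used to work out the reads. With the merged length of all exons the hypoxia interval in TET1-si cells lay above 0. With 1000 bp for the reads, the TET1-si interval under hypoxia reached 0 (-1.46 to 0.02). HOTAIR overlaps HOXC11 on the other strand by 1831 bp, and the libraries were not stated to keep strand. HOXC11 had 1.60, 2.03, 2.34 and 1.87 FPKM, a level like that of HOTAIR, and the 2 cannot be told apart in the overlap.

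A list of 8 genes for proteins that bind HOTAIR was drawn up, of the polycomb repressive complex 2 (EZH2, SUZ12, EED, RBBP4, JARID2) and of the LSD1 complex (KDM1A, RCOR1, REST). Their median hypoxia response was -0.25 in scrambled and -0.42 in TET1-si cells, and with the hairpin the medians were -0.05 (hypoxia, 0.02 with TPM) and 0.20 (normoxia). EZH2, the methyltransferase of the complex, stood out in H-si, with 32.6, 31.5, 27.7 and 13.5 FPKM. It was the single gene of the list with 2-fold changes, -1.21 in hypoxia in TET1-si cells and -1.03 with the hairpin under hypoxia. At least 2-fold lower in these comparisons were 8.66% and 8.35% of all genes, so 1 of 8 is no result about the list. RCOR1 had 28.5, 24.9, 28.9 and 21.2 FPKM, RBBP4 180.9, 204.8, 141.4 and 122.8, and EED 32.8, 48.2, 25.7 and 31.7.

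Counted by the 2-fold rule, H19 was higher and SNHG1 lower in hypoxia in scrambled cells, 1 of 10 each way. Of all 15057 genes tested, 12.9% were at least 2-fold higher and 4.53% lower in this comparison, and of the 1665 other long noncoding genes tested 19.7% were higher and 4.44% lower. In TET1-si cells NEAT1 and H19 were higher and SNHG1 and SNHG3 lower in hypoxia, 2 of 10 each way, against 12.5% higher and 8.66% lower of all genes and 21.3% and 6.19% of the other long noncoding genes. With the hairpin under hypoxia H19 was higher and none was 2-fold lower, against 12.0% and 8.35% of all genes and 21.5% and 7.33% of the other long noncoding genes. With the hairpin under normoxia no member changed 2-fold, where 12.1% of all genes were higher and 5.56% lower, and 19.4% and 5.95% of the other long noncoding genes. Rescaled to TPM, SNHG1 and SNHG3 no longer reached 2-fold in hypoxia. With 10 members these shares lie near the background and are no result about the group.

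Direction was counted without a fold threshold as well. Counting intervals lay clear of 0 for 4 members above and 5 below in hypoxia in scrambled cells, for 4 and 5 in TET1-si cells, for 2 above and 8 below with the hairpin under hypoxia, and for 1 above and 7 below under normoxia. One of the 2 above is MALAT1, whose sign there turned with the scaling, and with 1000 bp for the reads this count was 1 above and 7 below. The share of all genes tested whose interval lay clear of 0 was not worked out. By sign alone, 46.4% and 47.8% of them were lower in hypoxia (scrambled, then TET1-si cells). With the hairpin 42.9% were lower under hypoxia and 39.0% under normoxia. The interval counts are therefore no result about the group. The median change of the 10 was -0.37 with the hairpin under hypoxia and -0.21 under normoxia, where the medians of the other long noncoding genes were 0.29 and 0.27. In hypoxia the medians of the 10 were -0.09 in scrambled and 0.14 in TET1-si cells, against 0.28 and 0.37. Levels were not matched in this comparison.

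**Figure D4:**
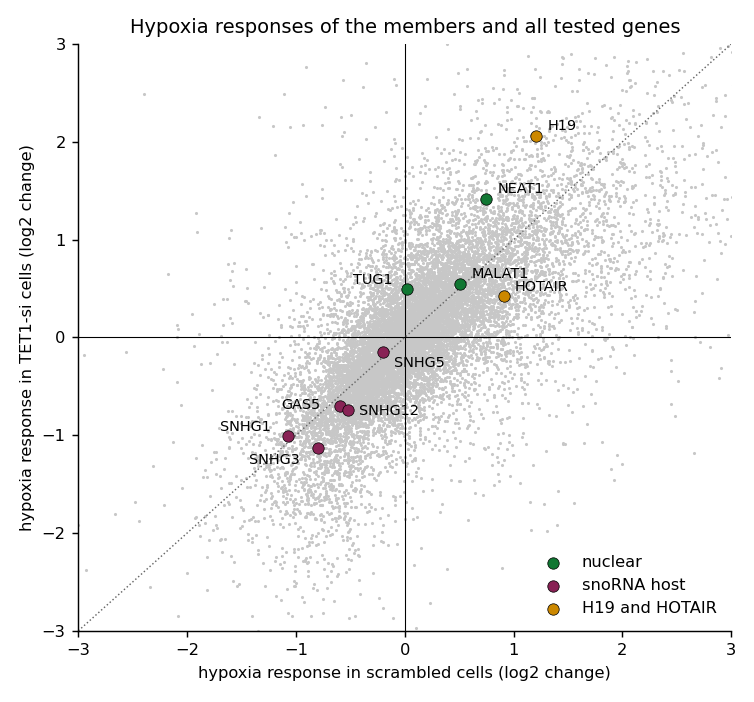
Log2 change in hypoxia in scrambled cells (horizontal) against that in TET1-si cells (vertical). Grey points are the 15057 genes tested, of which 517 lie outside the axes, coloured points the 10 RNAs, and the dotted line marks equal responses. The 5 hosts lie at the lower left near the line, and NEAT1, TUG1 and H19 lie above it.

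The difference of the hypoxia responses, TET1-si cells minus scrambled cells, was above 0 beyond counting error for 5 RNAs (MALAT1, NEAT1, TUG1, SNHG5 and H19) and below 0 for 3 (GAS5, SNHG3 and SNHG12). For MALAT1 and SNHG5 it was no more than 0.05. SNHG3 (-0.33 [-0.45 to -0.20]) and SNHG12 (-0.22 [-0.34 to -0.10]), neighbours on chromosome 1, were lower still in hypoxia when the hairpin was present, and NEAT1, TUG1 and H19 were higher. For SNHG1 and HOTAIR the interval held 0. A scaling shifts all 10 values together. With upper-quartile scaling GAS5 was at -0.04 and SNHG1 at 0.12, so calls this near 0 rest on the scaling. Over all genes tested the median difference was -0.06, with 44.6% above 0 and 55.4% below. The share of them clear of 0 by counting error was not worked out, so the counts of 5 and 3 are no result about the group.

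None of the 10 met the 3 criteria by which the study selected genes dependent on TET1 in its RNA-Seq, which ask that the scrambled library exceed 2 times the TET1-si library in hypoxia, that it be higher in hypoxia than in normoxia, and that in normoxia it be no lower than the TET1-si library. Applied with no other filter, so that the set need not be the one the study used, these picked 2687 of 62077 rows, and 578 of the 15057 genes tested. NEAT1, TUG1 and HOTAIR met the last 2 of these, and it was the ratio of H-scr to H-si that they missed, at 1.08, 1.16 and 1.62. The highest ratio among the 10 was 1.76, in SNHG5, which was lower in hypoxia and so missed the second criterion. H19 ran the other way, at 0.438.

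Genes around each RNA were compared, to see whether the whole neighbourhood moved. For each RNA these were the protein-coding genes with a mean of at least 1 FPKM whose midpoint lay within 1 Mb. Around NEAT1 there were 65, with a median TET1-si response under normoxia of 0.06, and 63 of them lay above the -0.78 of NEAT1. Under hypoxia NEAT1, at -0.12, did not stand apart, with 33 below it, 32 above and a median of -0.17. Around TUG1 25 of 29 lay above its -0.68 under normoxia (median -0.03, but -0.31 within 0.5 Mb). Under hypoxia their median was -0.28, beside the -0.21 of TUG1. Around SNHG1 40 of 41 lay above its -1.07 in hypoxia in scrambled cells (median -0.01), and around SNHG3 26 of 26 lay above its -0.80 (median -0.05). All 3 neighbours of SNHG5 and all 7 of GAS5 lay above these hosts for the TET1-si response under normoxia. In hypoxia in scrambled cells they did not stand apart in this way: the genes around GAS5 had a median of -0.27, with 3 of 7 below its -0.60, and those around SNHG5 a median of -0.34, with 2 of 3 below its -0.20. Around H19 14 of 15 lay below its 1.19 with the hairpin under hypoxia, with a median of -0.24. In hypoxia, however, the genes around H19 were themselves higher, with medians of 0.65 in scrambled and 0.78 in TET1-si cells. Around HOTAIR the median TET1-si response under hypoxia was -0.35, and 27 of 34 genes lay above its -0.66. Neighbours were not independent of each other, and the windows of NEAT1 and MALAT1 overlap, as do those of SNHG3 and SNHG12.

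**Figure D5:**
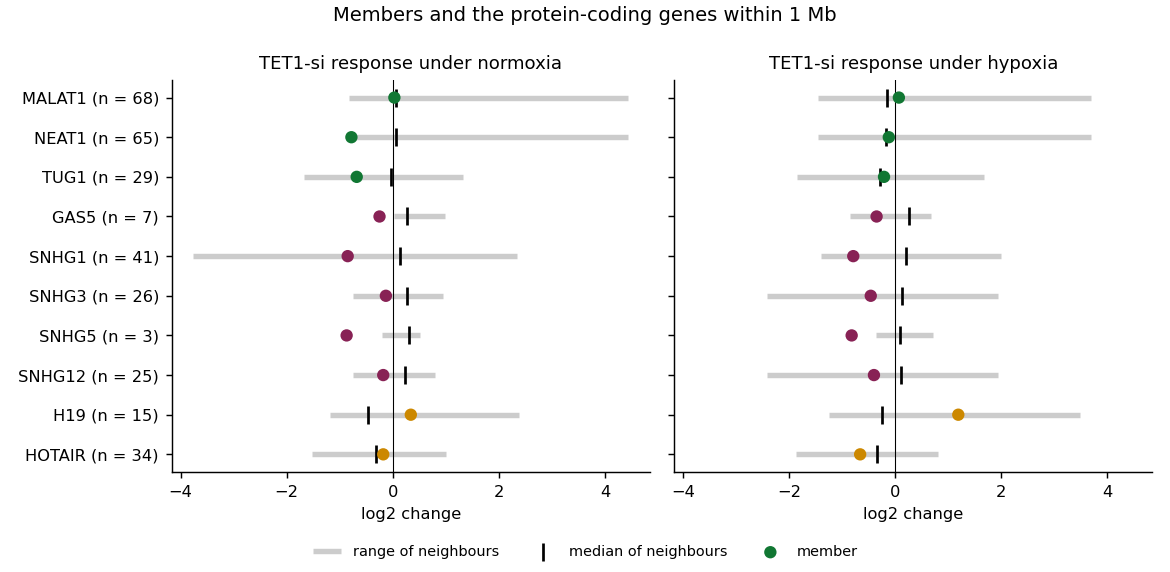
Log2 change with the hairpin under normoxia (left) and hypoxia (right) of each RNA (coloured point) and of the protein-coding genes within 1 Mb (grey line from the lowest to the highest, black tick for the median, their number n beside the name). The 5 hosts lie left of the median of their neighbours in both panels, and H19 lies right of it.

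Of 12 partners of the same loci, 9 had a mean of at least 1 FPKM, and none of these changed 2-fold in any comparison. Depending on the comparison, 12.0% to 12.9% of all genes were at least 2-fold higher and 4.53% to 8.66% lower. SLC3A2, the amino acid transporter subunit next to SNHG1, had 874.5, 591.1, 680.3 and 609.0 FPKM. MORC2 next to TUG1 had 20.7, 16.7, 16.9 and 15.8 FPKM. SYNCRIP next to SNHG5 had 246.9, 215.1, 152.0 and 118.6, lower chiefly in hypoxia where SNHG5 was lower chiefly with the hairpin. TRNAU1AP, which meets the 3′ end of SNHG12, had 9.87, 15.4, 12.3 and 16.5 FPKM. In the HOXC cluster HOXC10 had 17.5, 17.1, 14.9 and 17.5 and HOXC13 had 0.9002, 1.56, 1.55 and 2.79 FPKM, neither in the order of HOTAIR. HOXC12, below the minimum with 0.293, 0.169, 0.625 and 0.313 FPKM, did have that order.

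RNAs without a poly(A) tail were read as a sign of how far the selection of mRNA reached, since MALAT1 ends in a structure in place of a tail. RN7SK had 10.3, 11.7, 22.6 and 16.5 FPKM, and RMRP had 17.4, 7.46, 22.4 and 14.1. The summed level of 4 such RNAs with a row was 29.7, 20.1, 46.7 and 31.9 FPKM. RMRP and the sum were lowest in N-si, as NEAT1 and TUG1 were, and highest in H-scr, as NEAT1, TUG1 and HOTAIR were. Its part in those results was not tested.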

How the data were processed

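The authors made mRNA libraries with TruSeq reagents, sequenced reads of 100 bases on a HiSeq instrument, and ran TopHat and Cufflinks with Ensembl annotation on hg19 (GRCh37). Versions, filters, the Ensembl release and strand are not given in the sources used here, and the labels and the methods differ on single or paired ends. The deposited FPKM, 1 column per library, were used as they are. The 10 RNAs and all gene lists were chosen with earlier results of these data known. The list of paraspeckle proteins is not complete, and a gene left out of it is not reported here. Named are the 10, the locus partners, TET1, and of each list the 2 genes with the largest absolute change in hypoxia in scrambled cells and with the hairpin under hypoxia.

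Changes are differences of log2(FPKM + 0.1), over genes with a mean of at least 1 FPKM. The 111 IDs that stand on 232 rows were left out. Annotation came from GENCODE v44 lifted to GRCh37, which holds 86.3% of the IDs. Depth was searched over 6326 genes with 1 exon, and 96.8% to 97.2% of the low values came out as whole reads within 0.05. Approximate reads are FPKM times depth times the canonical transcript length less 216 bp. Intervals of ratios are Clopper-Pearson, those of a difference of responses come from Poisson variances. The depth search and the 2-fold rule were tested on simulated data, and the intervals were not. RefSeq promoters matched 8 of the 10 names, and those of NEAT1 and HOTAIR are not used here. No test was run, as each group has 1 library. Alternatives were pseudocounts, scalings, filters, transcript lengths and windows. Work was done in Python 3.11.15 with pandas 2.3.3, numpy 2.4.6 and scipy 1.17.1.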

Additional observations from a re-analysis of the deposited data

How the results depend on the processing

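No paired analysis was possible because each group has 1 library, and no replicate could be left out. Of 250 values of single RNAs under another pseudocount or scaling, 81 were called moved. Another 2, of MALAT1 with the hairpin under hypoxia, were called reversed. Moved means beyond the counting interval, except for differences of the hypoxia responses, which were not judged by that interval. With median-of-ratios and upper-quartile scaling 3 changes turned in sign: MALAT1 with the hairpin under hypoxia (0.07 and clear of 0) to -0.07 and -0.04, MALAT1 with the hairpin under normoxia (0.03) to -0.14 and -0.15, and TUG1 in hypoxia in scrambled cells (0.02) to -0.09 and -0.04. Rescaling to TPM raised the hypoxia median over all genes from 0.05 (scrambled) and 0.03 (TET1-si) to 0.16 in both. With TPM the hypoxia response of scrambled cells had 2 members 2-fold higher and 0 lower, and that of TET1-si cells 0 lower, so the 2-fold calls of SNHG1 and SNHG3 rest on the scaling. The median of the 10 in these comparisons became 0.03 and 0.27 with TPM, and -0.20 in scrambled cells with median-of-ratios scaling. A minimum mean of 5 FPKM, which leaves out HOTAIR, gave -0.20 and -0.15. With the hairpin, median-of-ratios and upper-quartile scaling gave medians of -0.52 and -0.49 under hypoxia and -0.38 and -0.39 under normoxia, with 2 members 2-fold lower under normoxia by either. Counting members whose interval excluded 0, in place of 2-fold, gave 4 above and 5 below for either hypoxia response, 2 and 8 with the hairpin under hypoxia, and 1 and 7 under normoxia. The share of all genes with such an interval was not worked out, so these counts are no result about the group. Of 40 medians of the related lists, 27 moved by 0.1 or more under TPM or median-of-ratios scaling. Of 80 medians of neighbours, 27 moved as much with windows of 0.5 or 2 Mb. HOTAIR, on 59 to 131 reads, is the RNA that depth limits most.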
